A study of Mus musculus with 24 samples.

Results

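The genes described are 53 of the 14884 genes named on the array: 16 whose symbol begins with CENP (centromere protein) and 37 whose symbol begins with CEP and a number (centrosomal protein). They were taken by symbol pattern, with the cytokinesis gene CEP55 left out, and with earlier results of these data known. Each gene was read from the probe set with the highest mean over all arrays. RNA on the 24 arrays came from plasmacytomas, tumours that grew after MM.1S cells (an established human multiple myeloma line) were placed under the skin of CB17-SCID mice in Matrigel. There were 8 groups of 3 arrays: control (vehicle, PBS, in the treatment protocol, though the sample labels call it untreated), filanesib at 10 mg/kg, dexamethasone at 0.5 mg/kg, pomalidomide at 8 mg/kg, the 3 pairs of these drugs at the same doses, and the triple combination. The drugs were given by intraperitoneal injection for 2 days. All tumours derive from 1 cell line and all hosts are immunodeficient mice that keep their own stroma and myeloid cells. Nothing in the labels ties each array to its own mouse. The p-values then measure only how far these samples spread, which may be technical.

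The centromere is the stretch of chromosome on which the kinetochore, the machine that grips spindle microtubules, is built. CENP-A, a variant of histone H3, marks it, and the constitutive centromere-associated network of CENP proteins sits on that chromatin through the cell cycle and carries the microtubule-binding outer kinetochore in mitosis. The centrosome, built around a pair of centrioles, organises the poles of the same spindle, and CEP proteins serve in copying centrioles, in tethering the centrosomes to each other and in forming cilia. Filanesib blocks the motor KIF11, which pushes the spindle poles apart, so that treated cells are held in mitosis with a single pole. Pomalidomide directs the lymphoid factors IKZF1 and IKZF3 to degradation through cereblon, and dexamethasone is a glucocorticoid.

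Of the 53 genes, 50 carry a protein-coding accession. The other 3 are CEP83-DT, a divergent transcript, and the pseudogenes CEP170P1 and CEP192P1, whose probes can share sequence with CEP170 and CEP192. CEP192P1 was the 1 gene with several probe sets (3, with means of 2.40 to 3.13 on the log2 scale). The probe table named no probe set for CENPB, CENPE, CENPF, CENPJ or CENPS, and these genes are not analysed here. Mean levels on the log2 scale ran from 3.44 to 7.25 among CENP probe sets and from 3.13 to 8.65 among CEP probe sets, and 4 genes (CENPV, CEP85L, CEP170P1 and CEP192P1) lay under 3.85, the limit of a filter on dim genes. Levels of different probe sets are not comparable with each other, and the comparisons are between groups for 1 gene at a time.

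Of 10 plasma cell markers 7 were measured, at mean levels of 4.92 to 11.06, and their average per array was 9.21 to 9.46 with filanesib and 9.29 to 9.53 without it. None of the 7 had a limma adjusted p under 0.05 with filanesib. Averages of the other marker lists overlapped between arrays with and without filanesib, at 4.33 to 4.73 and 4.29 to 4.72 for 5 of 6 macrophage markers, 3.22 to 3.88 and 3.39 to 3.66 for 3 of 5 endothelial markers, 2.25 to 2.37 and 2.23 to 2.51 for 2 of 6 fibroblast markers, and 4.17 to 4.49 and 4.19 to 4.56 for 2 of 4 T cell markers; no erythroid marker was measured. None of these measured markers passed that limit with filanesib. The largest difference was -0.28 ± 0.09 for the endothelial marker PECAM1 (limma adjusted p = 0.165). With pomalidomide the macrophage marker CD68 rose (log2 difference 0.99 ± 0.09, limma adjusted p = 4.31e-07). Among plasma cell markers, IRF4 fell by 0.54 ± 0.11 (adjusted p = 0.00557) and CD38 rose by 0.18 ± 0.05 (adjusted p = 0.0304) with pomalidomide. The macrophage average was 4.43 to 4.73 with pomalidomide and 4.29 to 4.58 without it; the other 4 macrophage markers had differences of -0.01 (CD14), 0.06 (LYZ), -0.01 (CSF1R) and 0.04 (CD163), none of which passed. The part of these markers in the results for pomalidomide was not tested. The probes are human, so mouse cells register only by cross-hybridisation. In whole tumours, fewer cells in a state and less RNA per cell cannot be told apart. The 3 arrays of pomalidomide alone had residual SDs of 0.238 to 0.354 against 0.155 to 0.221 in the other 21. Residuals are taken from the mean of 3 arrays, so each array can raise those of the others in its group. Replicate 3 of that group was the lowest of all 24 arrays for 7 CENP and 17 CEP genes, and for 19.6% of all genes. Replicate 1 was the lowest for 3 CENP and 2 CEP genes (10.3% of all genes), and replicate 2 for 0 and 1 (3.39%). For replicate 3, counts of calls, family medians and some single values without it are given beside the main ones. Its part in the remaining values was not tested.

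**Figure D1:**
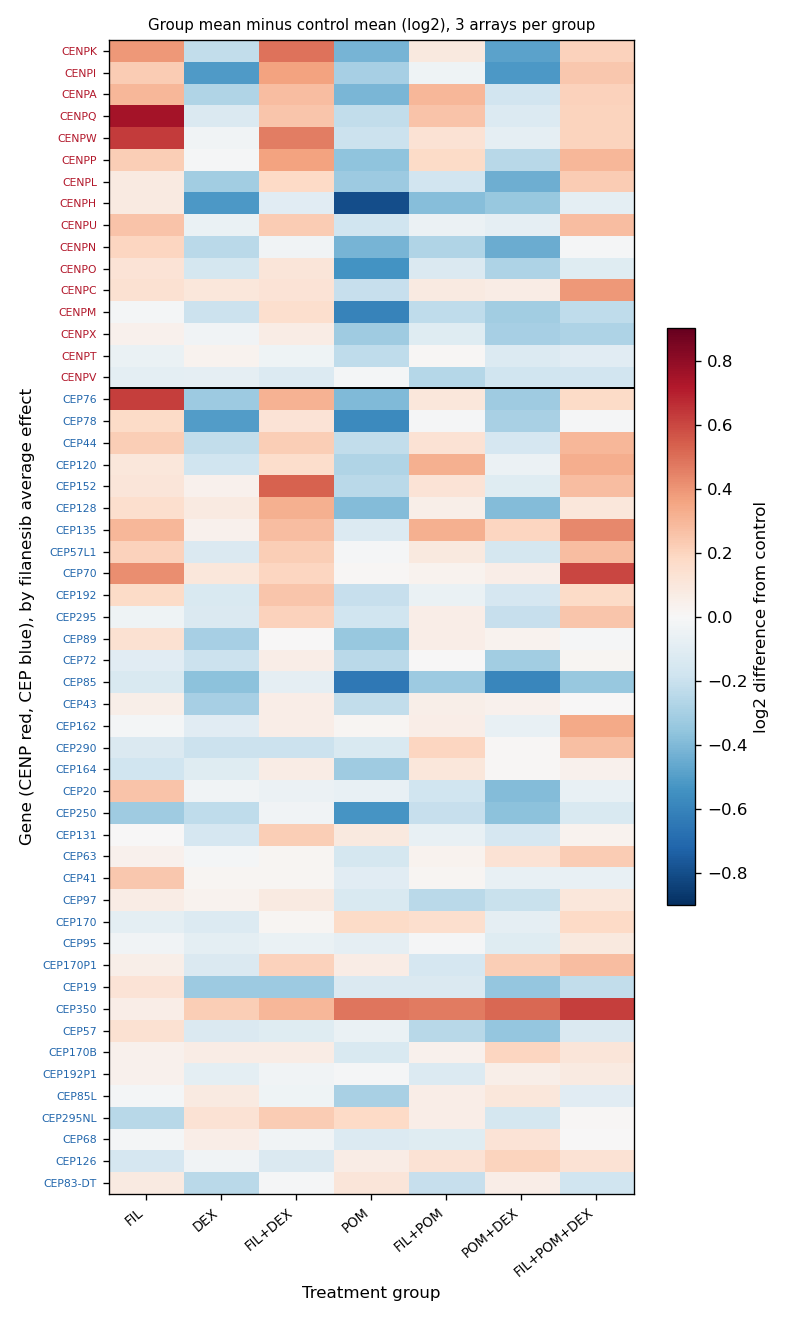
Difference of each group mean from the control mean on the log2 scale (colour) for the 16 CENP genes (red names, top) and 37 CEP genes (blue names), with the 7 treatment groups on the horizontal axis (FIL filanesib, DEX dexamethasone, POM pomalidomide; 3 arrays per group). Rows run by the filanesib average effect; CENPA, for example, is at 0.30 with filanesib, -0.27 with dexamethasone, -0.41 with pomalidomide and -0.17 with the latter pair.

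Several centromere genes were higher in tumours given filanesib. In the average effect of the drug, which averages the 4 differences made by adding it to nothing, to either other drug or to both (12 arrays against 12), 8 of 16 CENP genes and 4 of 37 CEP genes rose (limma, Benjamini-Hochberg adjusted p under 0.05 over all genes), beside 1.25% of all genes. The CENP genes were CENPA, CENPH, CENPI, CENPK, CENPL, CENPP, CENPQ and CENPW, and the CEP genes were CEP44, CEP76, CEP78 and CEP120. None fell. Without pomalidomide replicate 3 the counts were 7 CENP and 3 CEP genes: CENPH, CEP44 and CEP120 were lost and CEP57L1 was gained. The median log2 difference was 0.28 over CENP genes, 0.11 over CEP genes and 0.00 over all genes. Without pomalidomide replicate 3 the CENP and CEP medians were 0.27 and 0.09. Differences above 0 were seen in 15 of 16 CENP genes, 33 of 37 CEP genes and 49.2% of all genes. The gap between the medians of the families was 0.163, and no test was made of it, since genes are not replicates.

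CENPA, which encodes the centromeric histone itself (probe set 16877956), lay at 6.64, 6.83 and 6.94 (lowest, median and highest of 12 arrays) with filanesib and at 5.96, 6.37 and 6.72 without it. The ranges overlapped by a narrow margin: 11 of the 12 arrays with the drug were above every array without it. Its average effect was 0.48 ± 0.06 on the log2 scale (SE, 1.40-fold, limma adjusted p = 0.000182). By background the 3 arrays with filanesib were all above the 3 without it each time, with differences of 0.30 for filanesib by itself, 0.55 with dexamethasone, 0.71 with pomalidomide and 0.37 with both. The difference beside pomalidomide was the 1 call among the 53 genes in any pair of groups that differ by filanesib. There CENPA was at 5.96, 6.44 and 6.05 with pomalidomide alone and at 6.89, 6.83 and 6.85 with filanesib added (0.71 ± 0.12, limma adjusted p = 0.0188, beside 0.356% of all genes called). It missed the threshold without pomalidomide replicate 3 (0.66, adjusted p = 0.0522) and without filanesib plus pomalidomide replicate 1, 2 or 3 (0.69, 0.72 and 0.71, adjusted p = 0.0973, 0.0508 and 0.0704).

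Within the constitutive network, the CENP-H/I/K/M group links CENP-A chromatin to the rest of the network and had 3 of 4 genes risen, with a median of 0.41. CENPK was at 4.83, 5.45 and 6.00 (lowest, median, highest) with filanesib and at 4.02, 4.82 and 5.29 without it, and rose by 0.57 ± 0.12 (1.49-fold, limma adjusted p = 0.0148). CENPI was at 6.39, 6.96 and 7.34 against 5.77, 6.39 and 6.90 and rose by 0.53 ± 0.11 (1.44-fold, limma adjusted p = 0.0178). In both genes 8 of the 12 arrays with filanesib exceeded the highest without it. CENPH rose by 0.29 ± 0.07 (limma adjusted p = 0.0334), from 4.18, 4.61 and 5.25 to 4.61, 4.96 and 5.30, and its call was the least secure of the 8, lost in 14 of 24 omissions of 1 array (adjusted p from 0.00621 to 0.0799 over all alternatives). CENPM, which has the fold of a small GTPase, was at 6.58 to 7.20 with and 6.20 to 7.24 without filanesib, and its difference of 0.19 ± 0.06 did not pass (limma adjusted p = 0.133), except without control replicate 3 (0.23, adjusted p = 0.0361).

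The CENP-O/P/Q/U group, which binds microtubules and docks the kinase PLK1, had 2 of 4 genes risen and a median of 0.34. CENPP was at 6.45, 6.86 and 7.10 with filanesib and at 6.09, 6.40 and 6.68 without it, again with 11 of 12 arrays above the whole of the other range (0.41 ± 0.06, 1.33-fold, limma adjusted p = 0.000742). CENPQ was at 4.89, 5.31 and 6.00 against 4.58, 4.83 and 5.11 (0.48 ± 0.09, limma adjusted p = 0.00556). The highest CENPQ arrays were replicates 1 and 3 of filanesib alone, at 6.00 and 5.90, with replicate 2 at 5.23. CENPO and CENPU had differences of 0.24 ± 0.07 and 0.26 ± 0.10, which did not pass (limma adjusted p = 0.0885 and 0.293), although CENPO did without filanesib replicate 2 or pomalidomide replicate 1 or 2 (0.27, 0.26 and 0.27, adjusted p = 0.0441, 0.043 and 0.0308). All 12 filanesib arrays of CENPO were nevertheless above the median without the drug.

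CENP-L and CENP-N form a pair in which CENP-N reads the CENP-A nucleosome. CENPL was at 5.21, 5.52 and 5.97 with filanesib and at 4.87, 5.16 and 5.50 without it, a rise of 0.35 ± 0.07 (limma adjusted p = 0.00684), and CENPN differed by 0.25 ± 0.08 without passing (limma adjusted p = 0.176), except without filanesib replicate 2 (0.30, adjusted p = 0.0458). CENP-T, CENP-W and CENP-X belong to a group of histone-fold proteins that wraps DNA and, through CENP-T, recruits the outer kinetochore. Of these CENPW rose, from 4.48, 4.81 and 4.88 without filanesib to 4.69, 5.14 and 5.73 with it (0.43 ± 0.08, limma adjusted p = 0.00337). Its 12 arrays without filanesib lay close together, and 10 of the 12 with it were above them all. Its partner CENPT was at 6.85 to 7.33 with and 6.74 to 7.31 without filanesib, a difference of 0.03 ± 0.06 that turned to -0.03 when the gene table was quantile-normalised again (limma adjusted p = 0.881 in the first), and CENPX had 0.09 ± 0.07 (limma adjusted p = 0.681). CENPC, the scaffold that contacts both chromatin and the outer kinetochore, had 0.19 ± 0.10 (limma adjusted p = 0.450).

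CENPV, which shares the name but is not part of the constitutive network, was the only CENP gene with a negative value, at -0.09 ± 0.08 (limma adjusted p = 0.718). It was also the only CENP gene under the limit for dim genes.

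**Figure D2:**
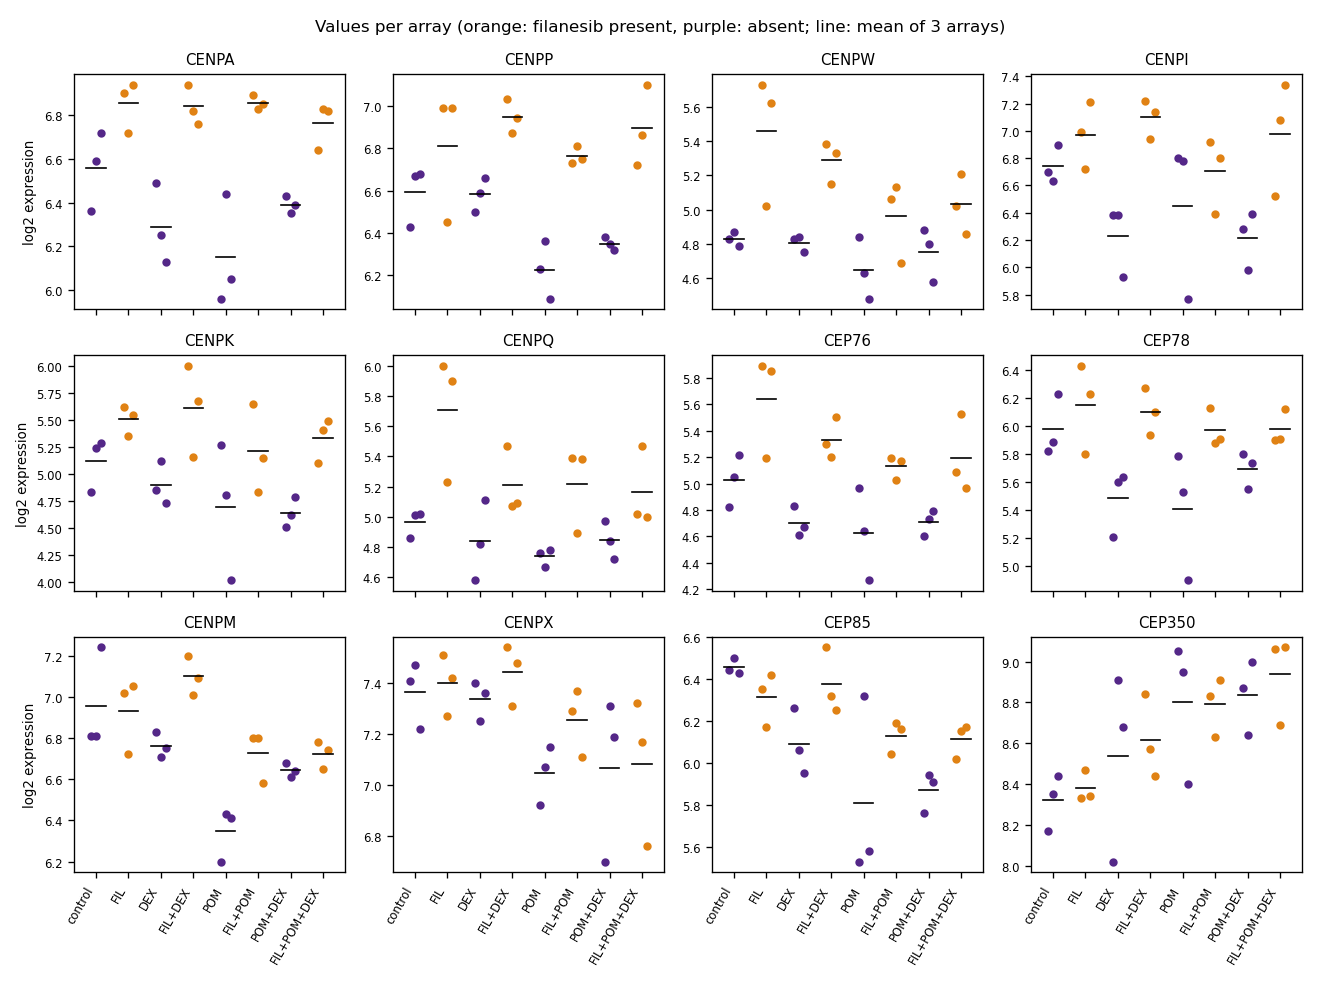
Log2 expression of 12 genes in each of the 24 arrays, by group (horizontal axis), orange where filanesib was given and purple where it was not, with a line at the mean of 3 arrays; the vertical axes differ between panels. In CENPA and CENPP 11 of 12 orange points lie above all purple ones, whereas for CENPM, CENPX and CEP85 all 12 points with pomalidomide lie below the median of those without it, and for CEP350 11 of 12 lie above.

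Among CEP genes, 3 of the 4 that rose, CEP44, CEP76 and CEP120, were listed under centriole duplication. Of 12 genes listed under centriole duplication and assembly 3 rose and all 12 had a positive value (median 0.27), against 0 of 7 under linker and subdistal appendage (median 0.07), 0 of 7 under distal appendage, transition zone and cilium (median 0.11) and 1 of 11 with no listed role (median 0.06). These lists were not compared by a test. CEP76, which restrains repeated copying of centrioles, was at 4.97, 5.20 and 5.89 with filanesib and at 4.27, 4.76 and 5.22 without it, and rose by 0.56 ± 0.09 (1.47-fold, limma adjusted p = 0.001). Its differences were 0.62 for filanesib by itself, 0.63 with dexamethasone, 0.50 with pomalidomide and 0.49 with both, and only with no other drug did the arrays overlap. CEP78, a centriolar protein mutated in a retinal dystrophy with deafness, was at 5.80, 6.02 and 6.43 against 4.90, 5.69 and 6.23 and rose by 0.41 ± 0.09 (limma adjusted p = 0.0214). That call was lost without filanesib replicate 1 or 3 or replicate 1 of filanesib plus dexamethasone (0.38, 0.40 and 0.39, adjusted p = 0.0528, 0.0507 and 0.0548).

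CEP44, needed for a new centriole to mature into a centrosome, rose by 0.36 ± 0.09 (4.78, 4.98 and 5.38 with filanesib, 4.34, 4.68 and 5.10 without, limma adjusted p = 0.0286). CEP120, which promotes centriole elongation, rose by 0.35 ± 0.09 (5.76, 5.92 and 6.28 against 5.01, 5.70 and 5.93, limma adjusted p = 0.0462). Both calls were close to the threshold, being lost in 12 and 16 of 24 omissions of 1 array (adjusted p up to 0.0806 and 0.121 over all alternatives), among them that of pomalidomide replicate 3 (0.33 and 0.30, adjusted p = 0.0531 and 0.0659).

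The scaffolds that start centriole copying had positive values that did not pass: CEP152, the receptor for the kinase PLK4, 0.34 ± 0.10 (limma adjusted p = 0.101), CEP135, of the centriole cartwheel, 0.30 ± 0.08 (adjusted p = 0.0826), CEP192, which recruits pericentriolar material, 0.26 ± 0.10 (adjusted p = 0.255), and CEP63, the partner of CEP152, 0.10 ± 0.09 (adjusted p = 0.747). Without pomalidomide replicate 1, CEP152 (0.40, adjusted p = 0.012) and CEP135 (0.34, adjusted p = 0.0238) passed, and CEP152 also without replicate 1 of the triple combination (0.38, adjusted p = 0.0448). The centriole cap gene CEP97 had 0.08 ± 0.08 (0.00 and no longer positive without pomalidomide replicates 1 and 3), the linker gene CEP250 0.11 ± 0.06 and the ciliary transition zone gene CEP290 0.12 ± 0.11, with adjusted p of 0.723, 0.537 and 0.729. The lowest values were -0.06 ± 0.12 for CEP126 and -0.06 ± 0.09 for CEP83-DT (0.00 with array weights), neither of which passed (adjusted p = 0.871 and 0.846). CEP57L1, CEP70 and CEP135 lay just short of the threshold, with adjusted p of 0.0750, 0.0815 and 0.0826.

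By background, no gene of either family was called for filanesib alone against control, where 0% of all 14884 genes were called (587 had an unadjusted limma p under 0.05, among them 3 CENP and 3 CEP genes). None was called beside dexamethasone, where 0.0202% of all genes were, or beside pomalidomide plus dexamethasone, where 0.00672% were. At an unadjusted limma p under 0.05 there were 8 CENP and 7 CEP genes in the former, beside 5.73% of all genes. In the latter there were 6 and 8, beside 7.29%. The medians of CENP genes were 0.17 for filanesib by itself, 0.35 with dexamethasone, 0.30 with pomalidomide and 0.32 with both. Those of CEP genes were 0.05, 0.18, 0.16 and 0.24, and those of all genes lay between -0.01 and 0.02. These 4 differences do not share arrays.

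The 3 arrays with filanesib were all above the 3 without it for 4 CENP and 3 CEP genes with no other drug, where this held for 5.62% of all genes. Beside dexamethasone it held for 9 CENP and 14 CEP genes (7.06% of all genes), beside pomalidomide for 7 and 10 (8.28%) and beside both for 7 and 13 (7.22%). All 4 differences were positive for 13 of 16 CENP genes, 12 of 37 CEP genes and 10.5% of all genes. Beside pomalidomide plus dexamethasone, the comparison named in the title of the series, CENPL had the smallest p. It was at 5.15, 4.87 and 5.08 in the pair and at 5.70, 5.49 and 5.93 in the triple combination, a difference of 0.67 ± 0.14 that did not pass (limma adjusted p = 0.0765). CENPI had 0.76 ± 0.23, CENPP 0.55 ± 0.13 and CEP70 0.54 ± 0.15 (adjusted p = 0.294, 0.142 and 0.226).

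The effect of filanesib was not shown to depend on the other drugs for any of the 53 genes. Neither the filanesib by pomalidomide nor the filanesib by dexamethasone interaction called a gene, with 0% of all genes called in each by limma. At an unadjusted p under 0.05 there were 996 and 646 genes, of which 2 and 4 belonged to the families. The largest of these was CENPI, whose filanesib effect was 0.57 ± 0.23 larger with dexamethasone than without (limma adjusted p = 1), and CENPL had 0.46 ± 0.14 (adjusted p = 1).

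**Figure D3:**
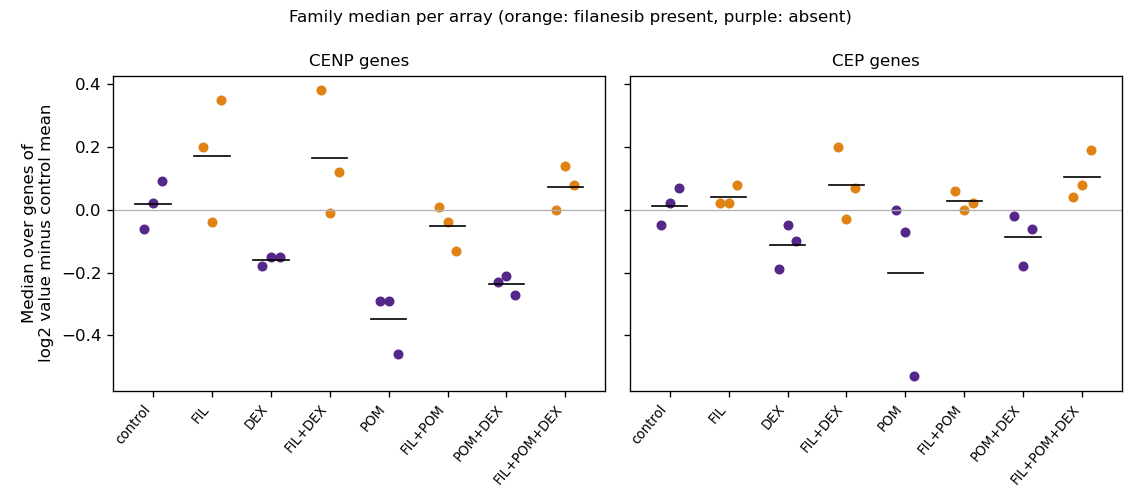
Median over the 16 CENP genes (left) and the 37 CEP genes (right) of the log2 value minus the control mean, for each of the 24 arrays by group, orange with filanesib and purple without, with lines at the mean of 3 arrays. In the CENP panel the means are 0.17 for filanesib, -0.35 for pomalidomide, -0.05 for filanesib plus pomalidomide and 0.08 for the triple combination; in the CEP panel 1 pomalidomide array is at -0.53.

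In the average effect of pomalidomide 4 of 16 CENP genes fell, CENPH, CENPM, CENPO and CENPX, and 1 CEP gene, CEP85, beside 2.65% of all genes. CEP350 rose, beside 2.21% of all genes that did. The counts in the 2 families were the same without pomalidomide replicate 3, with medians of -0.18 over CENP and -0.01 over CEP genes. With all 24 arrays the median was -0.18 over CENP genes, where all 16 values were below 0. It was -0.03 over CEP genes, where 14 of 37 were above 0, and -0.01 over all genes. The filanesib and pomalidomide averages use the same 24 arrays, and the values of each gene are therefore given side by side without a measure of their likeness.

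CENPM was at 6.20, 6.64 and 6.80 with pomalidomide and at 6.71, 6.92 and 7.24 without it, a fall of 0.33 ± 0.06 (limma adjusted p = 0.00171). All 12 arrays with the drug were below the median without it, and 8 were below the whole of the other range. CENPO fell by 0.28 ± 0.07 (5.44, 6.18 and 6.31 against 6.14, 6.37 and 6.70, adjusted p = 0.0159) and CENPX, a DNA-binding histone-fold protein that also serves the Fanconi anaemia pathway, by 0.27 ± 0.07 (6.70, 7.16 and 7.37 against 7.22, 7.40 and 7.54, adjusted p = 0.0312). CENPH fell by 0.27 ± 0.07 (4.18, 4.68 and 5.14 against 4.45, 4.99 and 5.30, adjusted p = 0.0271). The calls of CENPH and CENPX were lost in 7 and 10 of 24 omissions of 1 array (adjusted p up to 0.0598 and 0.073 over all alternatives). CENPH was the only one of the 53 genes called for both drugs, upward with filanesib and downward with pomalidomide. Such a pair of calls was also seen elsewhere on the array. It held for 26 of all 14884 genes, where 186 rose with filanesib and 394 fell with pomalidomide. For comparison, CENPM and CENPX had filanesib averages of 0.19 and 0.09, whereas CENPA, the CENP gene with the smallest p for filanesib, had a pomalidomide average of -0.10 ± 0.06 (adjusted p = 0.481).

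By background, CENPH was at 5.25, 4.94 and 5.03 in control and at 4.39, 4.26 and 4.18 with pomalidomide alone (-0.80 ± 0.14, limma adjusted p = 0.00649), and its other differences were -0.45 beside filanesib, 0.18 beside dexamethasone and 0.00 beside both. CENP medians were -0.32 with no other drug, -0.25 beside filanesib, -0.11 beside dexamethasone and -0.06 beside both, and those of all genes between -0.02 and 0.01. For pomalidomide alone against control the 3 arrays were all below control for 9 of 16 CENP and 6 of 37 CEP genes, beside 9.06% of all genes. Such separation downward held for 3 CENP and 5 CEP genes beside filanesib (9.83% of all genes). It held for 2 and 3 beside dexamethasone (4.35%) and for 2 and 1 beside both (7.36%). Calls for pomalidomide alone against control were CENPH, CENPM (-0.60 ± 0.12), CENPO (-0.54 ± 0.14), CEP85 (-0.64 ± 0.15) and CEP250 (-0.53 ± 0.13), beside 1.98% of all genes. Without replicate 3 of pomalidomide, CENPH (-0.75) and CENPM (-0.63) were still called, and CENPO (-0.33, adjusted p = 0.156), CEP250 (-0.44, adjusted p = 0.115) and CEP85 (-0.53, adjusted p = 0.104) were not. CENPO lost its call in 10 of 24 omissions of 1 array. With replicates 1 and 3 of pomalidomide left out together none of the 5 was called, at -0.81 for CENPH, -0.52 for CENPM, -0.30 for CENPO, -0.32 for CEP250 and -0.13 for CEP85. A fit to the 2 groups compared left the differences as they were and called none. With pomalidomide replicates 1 and 3 left out, the average effect still called CENPM, CENPO and CEP350, and the CENP median was -0.20.

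CEP85, which holds back the kinase NEK2 at the linker between centrosomes, fell by 0.33 ± 0.07 in the average (5.53, 6.03 and 6.32 with pomalidomide, 5.95, 6.33 and 6.55 without, limma adjusted p = 0.0113), although the value was -0.20 (adjusted p = 0.061) without pomalidomide replicates 1 and 3. CEP350, a large protein that anchors microtubules at the centrosome, went the other way. It was at 8.40, 8.89 and 9.07 with pomalidomide and at 8.02, 8.44 and 8.91 without it, a rise of 0.38 ± 0.09 (1.30-fold, adjusted p = 0.0184), with 11 of 12 arrays above the median without the drug. Its differences were 0.48 with no other drug, 0.41 beside filanesib, 0.30 beside dexamethasone and 0.32 beside both, and its filanesib average was 0.06 ± 0.09 (adjusted p = 0.854), or -0.03 with array weights.

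**Figure D4:**
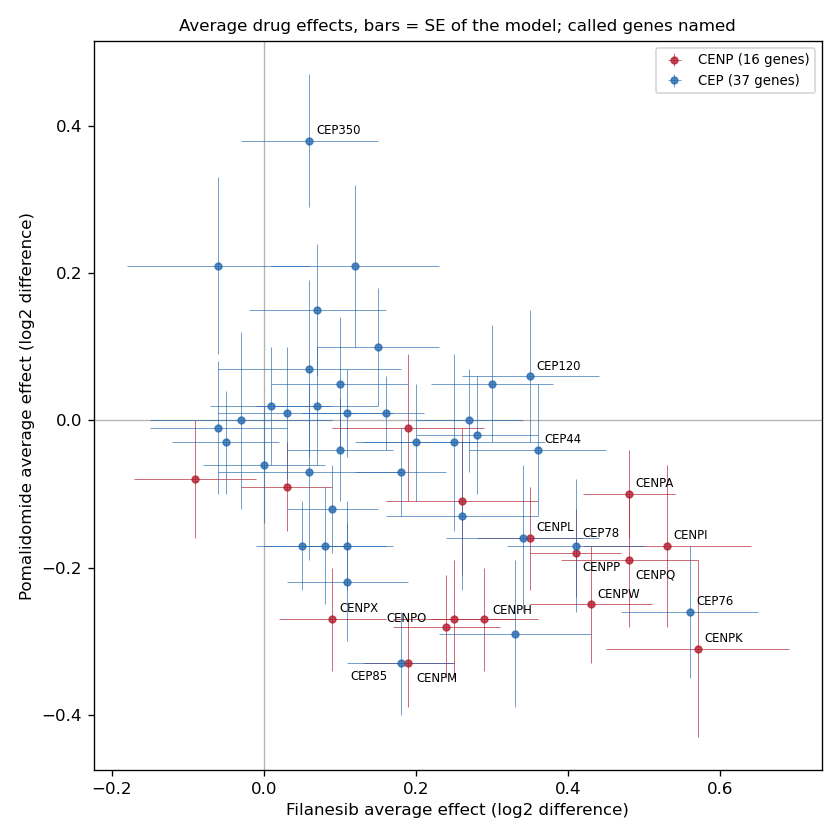
Average effect of filanesib (horizontal) against that of pomalidomide (vertical), both as log2 differences of 12 arrays against 12, for 16 CENP genes (red) and 37 CEP genes (blue); bars are the SE of the model and genes called for either drug are named. All CENP genes lie below 0 on the vertical axis, CENPV to the left of 0 on the horizontal axis (-0.09 and -0.08) and the other 15 to the right, as far as CENPK (0.57 and -0.31), and CEP350 is the highest point at 0.38.

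With all 3 drugs, no gene of either family was called in the triple combination against control, where 0.255% of all genes were. An unadjusted limma p under 0.05 was reached by 1 CENP and 5 CEP genes, beside 10.6% of all genes. The median was 0.20 for CENP and 0.10 for CEP genes. CENPA was at 6.36, 6.59 and 6.72 in control and at 6.64, 6.83 and 6.82 in the triple combination, and these arrays overlapped. The smallest p was that of CEP70, a centrosomal protein that aids microtubule organisation, at 5.65, 5.71 and 5.62 in control and 6.08, 6.32 and 6.38 in the triple combination (0.60 ± 0.15, limma adjusted p = 0.0816). Pomalidomide beside filanesib plus dexamethasone called none of the 53 genes (0.0269% of all genes). There 2 CENP and 2 CEP genes had an unadjusted limma p under 0.05, beside 6.33% of all genes.

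Dexamethasone called none of the 53 genes in its average effect (0.0134% of all genes), with medians of 0.00 for CENP and 0.02 for CEP genes. An unadjusted limma p under 0.05 was seen for 0 CENP and 2 CEP genes, beside 7.68% of all genes. The 2 were CEP19 (-0.27 ± 0.12) and CEP57 (-0.14 ± 0.06). Against control dexamethasone called none as a single drug (0.00672% of all genes). There the medians were -0.14 for CENP and -0.12 for CEP genes. An unadjusted limma p under 0.05 was seen for 4 CENP and 3 CEP genes, beside 3.9% of all genes. The same control arrays serve in the comparisons of filanesib alone, pomalidomide alone and the triple combination.

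Other genes of the same structures stood beside the families as follows. Over all genes 1.25% rose with filanesib and 2.65% fell with pomalidomide, at medians of 0.00 and -0.01. Of 15 measured among 28 listed kinetochore and centromere genes without a CENP symbol, 12 rose with filanesib and none fell, with a median of 0.44. The smallest p-values were those of the cohesin protector SGO1 (0.65 ± 0.09, limma adjusted p = 0.000477), the microtubule coupler SKA1 (0.63 ± 0.10, adjusted p = 0.00125) and the passenger complex scaffold INCENP (0.46 ± 0.08, adjusted p = 0.00219). With pomalidomide 2 of the 15 fell and the median was -0.19. Of 18 measured among 40 listed centrosome and centriole genes, 3 rose with filanesib, the centrosome-splitting kinase NEK2 (0.65 ± 0.10, adjusted p = 0.000477), the cartwheel protein SASS6 (0.43 ± 0.10, adjusted p = 0.0212) and the appendage protein ODF2 (0.34 ± 0.08, adjusted p = 0.0229), with a median of 0.29. With pomalidomide none of the 18 passed the threshold, at a median of -0.11. Of these differences 6 were positive, the highest being 0.40 ± 0.13 for AKAP9 (limma adjusted p = 0.076).

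The same shares of all genes, 1.25% risen with filanesib and 2.65% fallen with pomalidomide, stand beside the next 2 lists. Of 19 measured G2 and mitosis genes 18 rose with filanesib (median 0.52), led by CDC20, BUB1 and PLK1 (0.71 ± 0.06, 0.63 ± 0.06 and 0.63 ± 0.07), and 2 fell with pomalidomide (median -0.08). Of 19 measured DNA replication genes 3 rose with filanesib, GINS1, CDC6 and MCM10 (0.50 ± 0.07, 0.43 ± 0.09 and 0.29 ± 0.07), with a median of 0.18, and 18 fell with pomalidomide (median -0.39). The CENP medians, 0.28 for filanesib and -0.18 for pomalidomide, lay between those of the 2 lists for each drug. CEP55, set apart from the CEP genes and counted in the list of G2 and mitosis genes, had a filanesib average of 0.63 ± 0.08 (limma adjusted p = 0.000194). The highest value among the CEP genes kept was 0.56.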

How the data were processed

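Expression was measured on Affymetrix arrays of human probe sets, although the labels name the mouse host as the organism. The deposited values are log2 expression of probe sets, which the authors obtained by RMA (background correction, quantile normalisation, probe summary). The submitters' processing notes name it with Affymetrix Expression Console; versions are not given in the sources used here. Quantile normalisation hides a change shared by most genes. Of 53617 probe sets, 16098 had 1 gene symbol and 37519 none, which left 14884 genes, each read from its probe set with the highest mean. Genome coordinates were not used here. With limma 3.58.1 in R 4.3.3, 8 group means were fitted to all 24 arrays with eBayes-moderated variances, leaving 16 degrees of freedom. Two-sided p-values were adjusted by Benjamini-Hochberg across all genes in each of 13 comparisons, at a threshold of 0.05; errors are SEs of the model. The number of arrays limits the precision, with a median SE of 0.071 for an average effect and 0.142 for a pair of groups. The fit was tested on simulated data. No 2 arrays held identical values (correlations 0.951 to 0.990).

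The members and lists were chosen with earlier results of these data known. Values are given for members called for an average drug effect or in a pair, for a fixed series of centromere and centriole genes, for the extremes of each family, and for the 3 genes of each list with the smallest p for filanesib. CENPL, CENPI, CENPP and CEP70 in the triple combination, CEP43 and CEP164, the genes just short of the threshold and the grouping of CENP genes by subcomplex were chosen after their values were seen. Replicate numbers are shared between groups without a stated meaning. The closing section names some, not all, of the alternatives under which the call of a single gene was lost, and does not name every alternative tried.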

Additional observations from a re-analysis of the deposited data

Results flagged for a closer look

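In 6 genes the arrays separated completely in opposite directions in 2 or more backgrounds of 1 drug, 11.3% of the 53 genes beside 6.79% of all genes. By drug these were 2 genes for filanesib (3.21% of all genes), 1 for pomalidomide (2.69%) and 4 for dexamethasone (2.92%), with CEP43 in both of the latter. Differences are log2 values of 3 arrays against 3, and the contrast between the backgrounds was not tested unless stated. With filanesib, CEP250 was at -0.32 with no other drug and at 0.32 beside pomalidomide and 0.24 beside both; its filanesib by pomalidomide interaction was 0.34 ± 0.13 and did not pass (limma adjusted p = 0.637). CEP85 was at -0.14 with filanesib alone and 0.25 beside both other drugs. With pomalidomide, CEP43 was at -0.22 with no other drug and 0.33 beside dexamethasone. With dexamethasone, CENPH was at -0.52 with no other drug and 0.46 beside pomalidomide, and CENPL at -0.31 and, beside both, 0.41. CEP164 was at -0.11 with dexamethasone alone and 0.25 beside filanesib, and CEP43 at -0.30 and, beside pomalidomide, 0.25. Groups of 3 are too small for a test of single arrays as outliers.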

How the results depend on the processing

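The filanesib average effect called 12 of the 53 genes and the pomalidomide average effect 6. CENPA, CENPI, CENPK, CENPL, CENPP, CENPQ, CENPW and CEP76 kept their filanesib call, and CENPM, CENPO and CEP350 their pomalidomide call, under all 24 omissions of 1 array and 9 other alternatives. When the gene table was quantile-normalised again, CEP120 lost its filanesib call and CENPX its pomalidomide call. CENPO then lost its call for pomalidomide alone. The cause of these changes and of those below was not tested.

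Omitting 1 array gave 8 to 16 genes for filanesib, 7 to 10 CENP and 1 to 7 CEP, beside 130 to 318 of all 14884 genes. The CEP count was 1 without filanesib 1 or filanesib plus dexamethasone 1 (132 and 130 of all genes), and 7 without pomalidomide 1 (318). It was 2 without control 1, filanesib 3, dexamethasone 1, filanesib plus dexamethasone 3, filanesib plus pomalidomide 3, pomalidomide plus dexamethasone 2 or 3, or triple combination 2 or 3. For pomalidomide the omissions gave 4 to 10 genes, 2 to 7 CENP and 2 to 4 CEP, beside 512 to 879 of all genes. The CENP count was 7 without filanesib 2, and 2 without control 1, filanesib 1 or 3, filanesib plus dexamethasone 3, filanesib plus pomalidomide 3 or triple combination 3; the CEP count was 4 without pomalidomide 1 or triple combination 2. The counts were 0 to 6 for filanesib beside pomalidomide, 0 to 2 beside pomalidomide plus dexamethasone, and 1 to 7 for pomalidomide alone. For these pairs, and for the alternatives below, the share of all genes is not given. The gap between the CENP and CEP medians was 0.136 to 0.212.

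Array weights gave 7 CEP genes for filanesib, 3 genes beside dexamethasone, 0 beside pomalidomide, 2 beside both, 2 for the triple combination and 1 for pomalidomide alone. A fit to the 2 groups compared gave 0 genes for filanesib beside pomalidomide and 0 for pomalidomide alone. Leaving out pomalidomide replicates 1 and 3 together, chosen after seeing the data, leaves 1 array there, assumed to vary like the other groups, and gave 3 genes for pomalidomide (2 CENP, 1 CEP), 0 for filanesib beside pomalidomide, 0 for pomalidomide alone and 1 for the triple combination. Single filanesib values were recomputed for 31 of the 53 genes, and those whose sign turned were CENPT (-0.03, quantile normalisation again), CEP83-DT (0.00, array weights), CEP350 (-0.03, array weights; -0.01 to 0.10 over omissions, negative without dexamethasone 1) and CEP97 (0.00, pomalidomide 1 and 3 left out).

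The labels' replicate numbers did not pair the arrays: same-numbered arrays had correlations of residuals of -0.32 to 0.31, and 5 of 24 correlated best with their own number. With a replicate block 11 genes were called for filanesib (CEP120 was not), 6 for pomalidomide and 4 for pomalidomide alone (CENPO was not).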
